A study of Mus musculus with 4 samples.

Results

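The 10 genes of the actin and contractile machinery described here were read by symbol in single cells of 3 mouse lines: Acta2, Tagln, Cnn1 and Myl9, which are textbook markers of smooth muscle and of contractile fibroblasts, and their relatives Tagln2, Cnn2, Tpm1, Tpm2, Tpm4 and Actn1. All 10 were found among the 33565 genes listed in the count matrices, and each had at least 1 UMI, a counted RNA molecule, in every line. The 3 lines were barcoded together by CapSeq, a split-pool method in which the first barcode (BC1) marks the plate well and therefore the line. Barcodes were kept as cells from 1000 UMIs upward unless mitochondrial UMIs exceeded 20%, which left 2323 N2a cells, 2037 NIH/3T3 cells and 2137 mESCs whose depth had a median of 6185, 4863 and 4803 UMIs per cell. All cells came from 1 library in which each line was present once, and levels are therefore compared without tests or p-values. No barcode was shared between the 3 line matrices, and each line held 32 BC1 sequences, called wells below, which share a culture and a library and are not replicates.

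N2a (Neuro-2a) cells derive from a mouse neuroblastoma and NIH/3T3 cells are fibroblasts of mouse embryos, and both were grown in DMEM with fetal bovine serum. The mESCs were the embryonic stem cell line E14TG2a, kept on gelatin with serum, leukemia inhibitory factor and the inhibitors CHIR99021 and PD0325901. The labels name no transgene, knockout or further treatment for any line. The line names held against markers chosen for them: all 10 fibroblast markers that reached 5 CPM (UMIs of a gene per 1000000 UMIs of the line) were highest in NIH/3T3, all 9 stem cell markers were highest in the mESCs, and 5 of the 6 neuroblast markers that reached 5 CPM were highest in N2a. Th and Dbh, which encode enzymes of catecholamine synthesis, were under 5 CPM in N2a.

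Smooth muscle and activated fibroblasts contract by sliding nonmuscle or smooth muscle myosin along actin filaments. Acta2 encodes the smooth muscle isoform of actin, Myl9 a regulatory light chain of myosin, and Tagln and Cnn1 encode actin-binding proteins (transgelin and calponin) that are restricted largely to contractile cells. Tropomyosins, from the Tpm genes, lie along the filament and govern which proteins reach it, and alpha-actinin, from Actn1, cross-links filaments at adhesions and stress fibers. Many of these genes are targets of serum response factor (SRF), which binds a DNA element called the CArG box.

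The CArG box was looked for, on both strands, in 1 window of 300 bases per gene (250 before to 50 after the start site of the transcript that GENCODE marks as canonical). Other start sites of the same genes, such as the one at the outer end of Tpm4, were not searched. It was present in 335 of 21770 protein-coding promoters, or 1.54%, and in the windows of 2 of the 10 genes, Tagln and Cnn2. Both stretches are shown because Tagln, with 5 UMIs, was near the limit of detection in NIH/3T3 cells and Cnn2, with 964 UMIs, was not, counts that are not corrected for transcript length. The sequences were read from GRCm39, each on the strand of its gene, and capitals mark the CArG box.
Tagln, chr9:45847439-45847488, minus strand: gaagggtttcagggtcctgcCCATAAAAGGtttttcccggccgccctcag
Cnn2, chr10:79824358-79824407, plus strand: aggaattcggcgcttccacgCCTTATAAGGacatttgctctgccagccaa
The box began 64 bases before the start site in Tagln and 33 bases before it in Cnn2. A match is a description of these letters and was not tested as a binding site.

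The smooth muscle markers themselves were close to undetected in the counts of the fibroblasts. By these counts, the label of contractile genes did not hold for these 4 genes in NIH/3T3 cells. Whether genes on the opposite strand, described below, lowered the counts was not tested. The other 6 members were expressed in NIH/3T3 and are described after these 4. Summed over Acta2, Tagln, Cnn1 and Myl9, NIH/3T3 held 12 UMIs in 12 of 2037 cells (0.589%), mESCs held 15 UMIs in 14 of 2137 cells (0.655%), and N2a held 187 UMIs in 154 of 2323 cells (6.63%, exact 95% interval 5.65 to 7.72). N2a, the neuroblastoma line, thus held most of the UMIs of the 4 genes. A floor was set at 3 counts over a whole line, which correspond to 0.167 CPM in N2a cells, 0.256 CPM in NIH/3T3 and 0.243 CPM in the mESCs. All intervals are exact Poisson or binomial ones at the 95% level and cover counting error only.

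Acta2 (GRCm39 chr19:34217737-34232990) was at 1.73 CPM in N2a cells (1.17 to 2.45, 31 UMIs), at 0.171 CPM in NIH/3T3 (2 UMIs) and at 0.0812 CPM in the mESCs (1 UMI). The N2a level was 10.1 times the NIH/3T3 level (2.57 to 87.1). The 31 UMIs came from 16 cells in 13 of the 32 wells, and 8 of them came from a single cell. Without that cell, an omission chosen after its value was seen, the N2a level was 1.28 CPM.

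Myl9 (chr2:156617084-156623579) was the best detected of the 4 in N2a cells, at 6.74 CPM (5.59 to 8.05, 121 UMIs), against 0.256 CPM in NIH/3T3 (3 UMIs) and 0.730 CPM in the mESCs (9 UMIs). The ratio of N2a to NIH/3T3 was 26.3 (8.78 to 129) and that of N2a to mESC was 9.23 (4.70 to 20.7). Its UMIs were spread over 109 N2a cells and 30 of 32 wells, so they did not come from a few cells. Over N2a wells the level ran from 0 through a median of 6.77 to 14.1 CPM, and 22 of the 32 N2a wells were above every mESC well.

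Tagln (chr9:45840909-45847404) was at 1.89 CPM in N2a cells (34 UMIs), 0.427 CPM in NIH/3T3 (5 UMIs) and 0.325 CPM in the mESCs (4 UMIs). The N2a level was 4.43 times that of NIH/3T3 (1.72 to 14.5). Cnn1 (chr9:22010512-22020926) had 1 UMI in N2a, 2 UMIs in NIH/3T3 and 1 UMI in the mESCs and was not above the floor in any line. Only 3 of the 154 N2a cells with a UMI of the 4 genes held more than 1 of the genes, and those 154 cells were deeper than the line, with a median of 9075.5 UMIs. After every cell was thinned to 1000 UMIs, Acta2 was seen in 7 of 2323 N2a cells and 1 of 2037 NIH/3T3 cells, and Myl9 in 7 N2a and 3 NIH/3T3 cells, too few to compare at equal depth.

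Exons of 7 of the 10 genes overlap those of a gene on the opposite strand, none those of a same-strand gene, and whether the counting used strand is not given in the sources used here. All 4 low genes had a partner with more UMIs than themselves in every line. Stambpl1, opposite Acta2, was at 21.4 CPM in N2a cells, 22.8 CPM in NIH/3T3 and 3.33 CPM in the mESCs. It was thus close between N2a and NIH/3T3, where Acta2 differed, and lower in the mESCs. Acta2, with 2 UMIs in NIH/3T3 and 1 UMI in the mESCs, was under the floor in both, so its order between them cannot be read. 5730471H19Rik, opposite Myl9, was at 8.91, 1.28 and 34.7 CPM in the same order of lines, so it was higher in N2a than in NIH/3T3, as Myl9 was, and higher in the mESCs than in N2a, where Myl9 went the other way. Pcsk7, opposite Tagln, had 267, 180 and 122 UMIs against 34, 5 and 4 for Tagln, and Elof1, opposite Cnn1, had 499, 791 and 348 UMIs against 1, 2 and 1 for Cnn1. Tagln2, Cnn2 and Tpm2 had no such partner, and the measured partners of Tpm4 and Actn1 had at most 12 UMIs in a line. Tpm1 has a partner, Gm30639, whose level was not read. Whether the partners added to the member counts or lowered them was not tested.

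The other 6 genes were expressed in all 3 lines, and each line had its own combination of them. In NIH/3T3, Tpm1, Actn1, Tagln2 and Cnn2 were at their highest. In N2a, Tpm4 was far above the other lines, and Tpm2 was slightly above NIH/3T3. In mESCs, 5 of these 6 genes were at their lowest, Tpm1 being the exception.

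**Figure D1:**
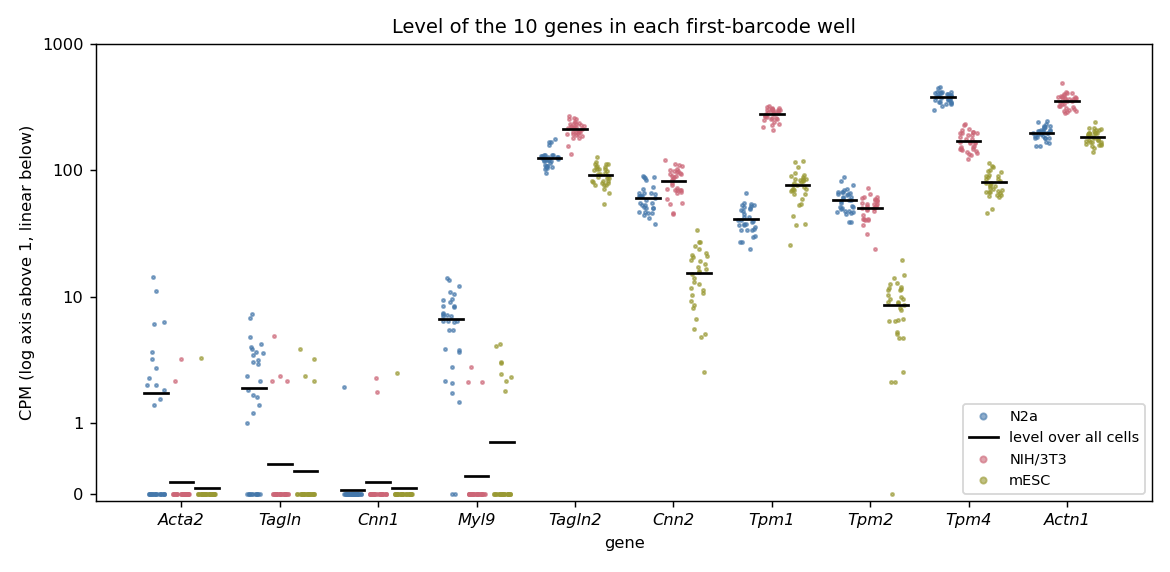
Level of each of the 10 genes in CPM (log axis above 1, linear below), with 1 point per well, 32 wells per line, and a bar at the level over all cells of the line. Acta2, Tagln, Cnn1 and Myl9 sit at 0 in most wells of NIH/3T3 and mESC, while Tpm1 and Actn1 are higher in every NIH/3T3 well than in any well of the other lines.

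Tpm1 (chr9:66929870-66956953), which encodes a tropomyosin with many splice forms in muscle and nonmuscle cells, separated the fibroblasts most clearly. It was at 41.7 CPM in N2a cells (38.8 to 44.8), 277 CPM in NIH/3T3 (268 to 287) and 77.3 CPM in the mESCs (72.5 to 82.4). The NIH/3T3 level was 6.64 times that of N2a (6.13 to 7.20) and 3.58 times that of mESCs (3.33 to 3.86). The lowest NIH/3T3 well, at 208 CPM, was above the highest N2a well, at 66.3 CPM, and the highest mESC well, at 120 CPM.

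Tpm4 (chr8:72884018-72906987), a nonmuscle tropomyosin, ran the other way between N2a and NIH/3T3. Its level was 380 CPM in N2a cells (371 to 389), 172 CPM in NIH/3T3 (164 to 180) and 80.4 CPM in the mESCs (75.5 to 85.6). N2a was 2.21 times NIH/3T3 (2.10 to 2.33), and every one of the 32 NIH/3T3 wells was below every N2a well. NIH/3T3 was in turn 2.14 times mESC (1.98 to 2.31), with all 32 wells above every mESC well.

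Tpm2 (chr4:43514697-43524949), beta-tropomyosin, was at 58.1 CPM in N2a cells, 50.8 CPM in NIH/3T3 and 8.68 CPM in the mESCs. N2a and NIH/3T3 were close, at a ratio of 1.14 (1.03 to 1.27), and their wells overlapped. Both were well above mESC, NIH/3T3 by 5.85 times (4.75 to 7.25) and N2a by 6.69 times (5.48 to 8.24), with no overlap of the wells.

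The 3 tropomyosin genes together gave 480 CPM in N2a cells (470 to 490), 500 CPM in NIH/3T3 (487 to 513) and 166 CPM in the mESCs (159 to 174). N2a and NIH/3T3 thus had nearly equal summed levels from different genes. With Tpm3, the fourth gene of the family, counted too, Tpm1 made up 5.74% of tropomyosin UMIs in N2a, 33.4% in NIH/3T3 and 12.4% in the mESCs. The share of Tpm4 was 52.4%, 20.7% and 12.9% in the same order, and that of Tpm3 was 33.9%, 39.8% and 73.2%. These shares are of UMIs, with no correction for transcript length, so each is to be read across lines and not between genes.

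**Figure D2:**
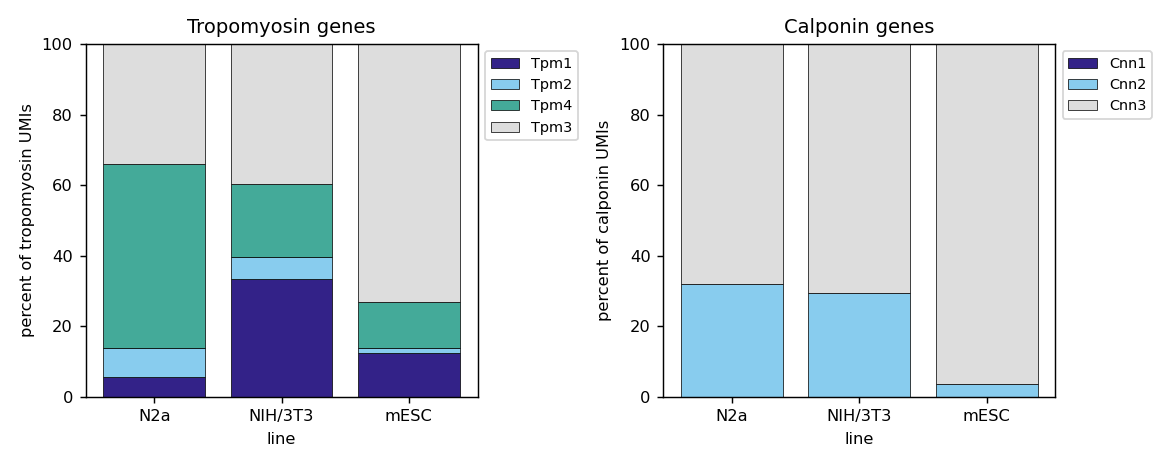
Share of UMIs (percent of the family) taken by each tropomyosin gene (left) and each calponin gene (right) in N2a, NIH/3T3 and mESC, as stacked bars. Tpm4 takes 52.4% of tropomyosin UMIs in N2a, Tpm1 takes 33.4% in NIH/3T3 and Tpm3 takes 73.2% in mESC, while Cnn1 takes too little to be seen in any line.

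Actn1 (chr12:80212233-80307547), the alpha-actinin of stress fibers and adhesions, was at 198 CPM in N2a cells (192 to 205), 355 CPM in NIH/3T3 (344 to 365) and 185 CPM in the mESCs (178 to 193). The NIH/3T3 level was 1.79 times that of N2a (1.71 to 1.87) and 1.91 times that of mESCs (1.82 to 2.01). All 32 NIH/3T3 wells, from 282 to 491 CPM, were above every well of both other lines. N2a and mESC were nearly equal, at a ratio of 1.07 (1.01 to 1.13), and their wells overlapped widely.

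Tagln2 (chr1:172327426-172334947), the widely expressed relative of transgelin, was at 125 CPM in N2a cells (120 to 130), 214 CPM in NIH/3T3 (205 to 222) and 91.9 CPM in the mESCs (86.6 to 97.4). NIH/3T3 was 1.71 times N2a (1.61 to 1.81) and 2.33 times mESC (2.17 to 2.50). Of the 32 NIH/3T3 wells, 30 were above every N2a well and 32 above every mESC well. Tagln2 gave 99.6% of the transgelin family UMIs in NIH/3T3.

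Cnn2 (chr10:79824410-79831896), a calponin found in many nonmuscle cells, was at 60.7 CPM in N2a cells, 82.4 CPM in NIH/3T3 and 15.5 CPM in the mESCs. NIH/3T3 exceeded N2a by 1.36 times (1.24 to 1.48), with 14 of 32 wells above every N2a well, so the wells of these lines overlapped. It exceeded mESC by 5.32 times (4.55 to 6.24), with all 32 wells above. Cnn3, acidic calponin, gave 68.0% of calponin UMIs in N2a, 70.5% in NIH/3T3 and 96.3% in the mESCs.

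**Figure D3:**
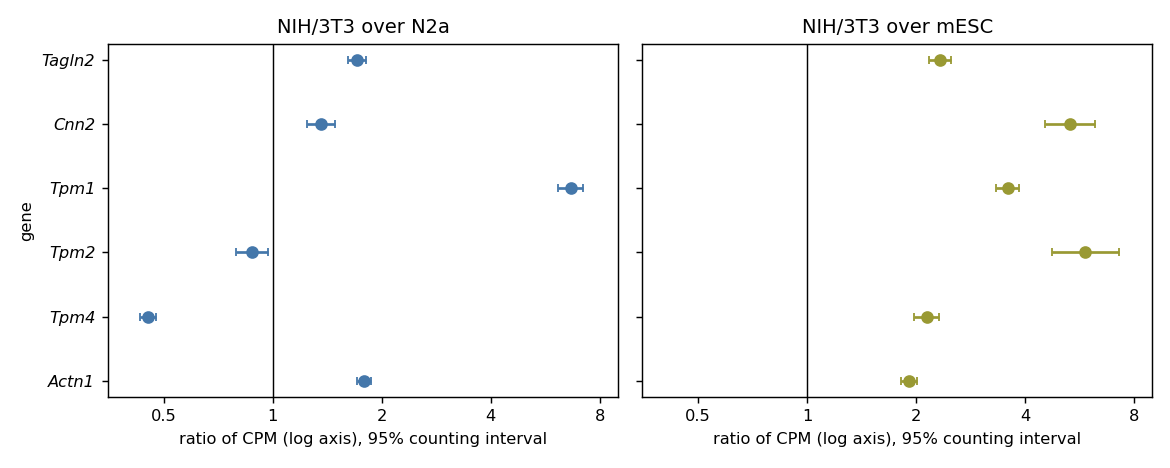
Ratio of the NIH/3T3 level to the N2a level (left) and to the mESC level (right) for the 6 expressed genes, on a log axis, with points for the ratio and bars for the exact 95% counting interval. Tpm1 lies farthest to the right against N2a, at 6.64, Tpm4 lies at 0.452, and all 6 genes lie above 1 against mESC.

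These differences were set beside those of all genes. Among the 13000 genes with at least 5 CPM in some line, 7 of the 10 members were included (not Acta2, Tagln and Cnn1). Myl9 was included only through its N2a level, so its calls in favor of N2a follow from this limit. A difference was counted when CPM + 1 was at least 2 times higher. NIH/3T3 was above N2a for 1 of 7 members (Tpm1), against 17.5% of all genes, and N2a was above NIH/3T3 for 2 of 7 (Myl9 and Tpm4), against 19.2%. NIH/3T3 was above mESC for 5 of 7 (Tagln2, Cnn2, Tpm1, Tpm2 and Tpm4), against 20.7%, and mESC was above NIH/3T3 for 0 of 7, against 22.8%. N2a was above mESC for 4 of 7 (Myl9, Cnn2, Tpm2 and Tpm4), against 21.5%, and mESC was above N2a for 0 of 7, against 20.7%.

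Only Tpm1, 1 of 7, was at least 2 times higher in NIH/3T3 than in each other line, against 10.5% of genes (6.71% over every gene with at least 1 UMI). Tagln2, Cnn2, Tpm1 and Actn1, 4 of 7, were highest in NIH/3T3 with intervals above those of both other lines, against 24.4% of genes. Without the condition on intervals the count was the same 4 of 7, against 32.5% of genes. Over all 10 members, 3 of them under the 5 CPM limit, the median log2 ratio of CPM + 1 was -0.02 for NIH/3T3 over N2a, 1.01 for NIH/3T3 over mESC and 1.23 for N2a over mESC, while the medians over the 13000 genes were -0.04, -0.02 and 0.03. The median near 0 between NIH/3T3 and N2a averages members that went both ways, with Tpm1 and Actn1 higher in NIH/3T3 and Tpm4 and Myl9 higher in N2a. The summed level of the 10 genes was 875 CPM in N2a cells (861 to 888), 1151 CPM in NIH/3T3 (1132 to 1171) and 460 CPM in the mESCs (448 to 473).

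Depth and free RNA were read beside these levels. At 1000 UMIs per cell, Tpm1 was seen in 4.35% of N2a cells, 22.8% of NIH/3T3 cells and 7.35% of mESCs, and Tpm4 in 31.4%, 16.6% and 6.18%, the same orders as the levels. Before thinning, Tpm1 was seen in 24.8%, 66.3% and 30.9% of cells. The 5 genes restricted to NIH/3T3 (Col1a2, Cav1, Prrx1, Sema5a and Il1rl1) that gauge stray RNA were read in N2a at 0.104% of their NIH/3T3 level and in the mESCs at 0.198%, far below the lowest ratio of any expressed member. In barcodes of under 100 UMIs the levels were close to those in cells, for example 314 CPM for Tpm1 in NIH/3T3 against 277 CPM in cells.

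Genes around the members were read from lists. Of 8 other smooth muscle genes, 6 reached 5 CPM in some line, and 2 of these were highest in NIH/3T3, against 32.5% of all genes. In NIH/3T3, 4 of the 8 were under 1 CPM, a share that was not read over all genes. Caldesmon (Cald1), which binds actin and tropomyosin, was at 259 CPM in NIH/3T3 and 463 CPM in N2a. Myosin light chain kinase (Mylk), which phosphorylates the regulatory light chain, was at 32.4 CPM in NIH/3T3, 0.390 CPM in N2a and 1.79 CPM in the mESCs, and smoothelin (Smtn), an actin-binding protein, at 27.9, 2.06 and 11.5 CPM. The defining markers Myh11 (smooth muscle myosin heavy chain) and Lmod1 stayed at 0.684 and 0.256 CPM in NIH/3T3, and Myocd, the coactivator that drives smooth muscle genes, had 0 UMIs there, which allows up to 0.256 CPM by the floor of 3 counts.

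Nonmuscle relatives, apart from Tagln3, were expressed in every line. Tagln3 was at 24.8 CPM in N2a cells, 0.427 CPM in NIH/3T3 and 3.81 CPM in the mESCs. All 11 reached 5 CPM in at least 1 line, and 2 were highest in NIH/3T3, against 32.5% of all genes. Another 5 were highest in N2a and 4 in the mESCs, shares that were not read over all genes. Actb gave 84.4% of actin UMIs in NIH/3T3, and Acta2 gave 0.0058%. Actg1 was at 971 CPM in N2a cells, 459 CPM in NIH/3T3 and 549 CPM in the mESCs, and Myl6 at 489, 442 and 366 CPM. Myl12a, a nonmuscle regulatory light chain, was at 221 CPM in N2a cells, 414 CPM in NIH/3T3 and 235 CPM in the mESCs, and Myl9 gave 0.0532% of regulatory light chain UMIs in NIH/3T3 against 2.51% in N2a.

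Among 11 regulators, 10 reached 5 CPM, and 6 of these were at least 2 times higher in NIH/3T3 than in N2a, against 17.5% of all genes. The reverse held for 1, Srf, against 19.2% of all genes. Srf was at 12.6 CPM in N2a cells, 5.21 CPM in NIH/3T3 and 8.36 CPM in the mESCs. Against mESC, 1 regulator was at least 2 times higher in NIH/3T3 and 1 was the reverse, against 20.7% and 22.8% of all genes. Tead1, a DNA-binding partner of YAP, was at 278 CPM in N2a cells, 318 CPM in NIH/3T3 and 687 CPM in the mESCs. Wwtr1, which encodes the coactivator TAZ, was at 2.23, 203 and 106 CPM in the same order, and Mrtfa, the actin-sensing coactivator of SRF, at 138, 175 and 66.9 CPM. Of 11 cytoskeletal and matricellular targets of SRF or YAP, 10 reached 5 CPM. Of these, 6 were at least 2 times higher in NIH/3T3 than in N2a and 0 the reverse, against 17.5% and 19.2% of all genes. Against mESC, 6 were higher in NIH/3T3 and 1 was the reverse, against 20.7% and 22.8%. Vinculin (Vcl), of focal adhesions, was at 119, 321 and 140 CPM and filamin A (Flna) at 219, 223 and 83.7 CPM. Amotl2 was at 0.334, 75.4 and 90.3 CPM, highest in the mESCs, and Ankrd1 at 0.0557, 71.6 and 0.162 CPM.

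The TGF-beta pathway, which induces Acta2 and Tagln in fibroblasts, was represented by 11 genes, all of which reached 5 CPM. Of these, 3 were at least 2 times higher in NIH/3T3 than in N2a and 3 were the reverse, against 17.5% and 19.2% of all genes, and 5 were higher in NIH/3T3 than in mESC and 2 the reverse, against 20.7% and 22.8%. Smad3, which carries the signal to the nucleus, was at 54.2 CPM in N2a cells, 97.9 CPM in NIH/3T3 and 23.9 CPM in the mESCs. Smad2 was at 140, 73.3 and 94.7 CPM and Smad4 at 88.4, 64.8 and 79.5 CPM, both highest in N2a. The receptor gene Tgfbr2 was at 0.167, 64.5 and 5.68 CPM. Of 9 striated muscle relatives, 3 reached 5 CPM in some line, against 13000 of the 33565 listed genes. In NIH/3T3, 4 of the 9 had 0 UMIs, a share that was not read over all genes. Actn3 was at 17.7 CPM in NIH/3T3 and 0.835 CPM in N2a cells, and Tnnt2, cardiac troponin T, at 11.9 and 4.18 CPM.

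Within NIH/3T3, the 6 expressed members varied together only weakly. Over 2037 cells, the Pearson correlation of ln(1 + counts per 10000) had a median of 0.0475 over the 15 pairs, with a range from 0.00114 (Tpm2 and Cnn2) to 0.102 (Tpm4 and Tagln2). The median over 11033253 pairs of 4698 genes with at least 50 CPM was 0.0255. Each of the 6 members also had a correlation of 0.103 to 0.207 with the logarithm of the UMIs per cell, which the pairs share. When every cell was thinned to 3000 UMIs the median of the 15 pairs was 0.0163 (-0.0624 to 0.0699), against 2.37e-05 over all pairs of the 4698 genes, and at 1000 UMIs it was 0.00161, against -0.000483. In counts this sparse, correlations of this size are no finding. In N2a and mESCs the same medians were 0.0502 and 0.0430.

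A grouping of cells gave the same picture. For each member, NIH/3T3 cells were ranked by the share of their UMIs in the other 9 genes, and the 509 cells at the top were compared with the 509 at the bottom. The member's level was higher at the top by a median of 1.11 times (1.08 to 1.23 over the 6 genes). Over 4692 genes the median was 0.992 and the 95th percentile was 1.34, above every member. Only Tpm1, at 1.23 (1.10 to 1.37), and Tagln2, at 1.17 (1.03 to 1.32), had intervals above 1. At 3000 UMIs per cell the median was 1.01. Without thinning, the median of the same members was 1.17 in N2a and 1.36 in the mESCs.

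The spread of each member over NIH/3T3 cells was read as the ratio of variance to mean, where 1 is Poisson counting. At 1000 UMIs per cell it ran from 1.00 for Tpm2 to 1.09 for Tpm1, against a median of 1.03 over 4698 genes, at means of only 0.0530 to 0.351 UMIs per cell, where little departure from 1 can be seen. At 3000 UMIs it ran from 0.962 for Tpm2 to 1.15 for Actn1, against a median of 1.08. The 203 cells richest in S phase transcripts and the 203 richest in G2/M transcripts were each set beside the remaining 1633 cells, and the members differed by 0.933 to 1.20 times. Only Actn1 had an interval that left 1, at 1.11 times in the G2/M group (1.01 to 1.22). The cells of that group were also deeper (a median of 5672 against 4894 UMIs). Over 4692 other genes, the 5th to 95th percentiles ran from 0.775 to 1.35 in the G2/M group. In the S group they ran from 0.776 to 1.25, so every member lay within the range of its group.

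Genes outside the list were read next. The summed level of the members was correlated across NIH/3T3 cells with all 4698 genes. A correlation above 0.1 was found for 3.07% of these and for 0 of the 6 members, each read against the sum of the others. With only 6 members, these shares cannot be told apart. The most similar genes were Dcn (decorin, a collagen-binding proteoglycan) at 0.242, Cald1 at 0.198, Nlgn1 (neuroligin 1) at 0.192, Hspd1 (a mitochondrial chaperonin) at 0.189 and Gsta4 (a glutathione transferase) at 0.189. The median over all the genes was 0.0261. At 3000 UMIs per cell, in 1500 cells, the 5 correlations were 0.167, 0.138, 0.135, 0.0723 and 0.129. Acta2, with 2 UMIs in the line, allowed no such ranking.

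These 5 genes had higher correlations with each other than the members had. They were picked from 4698 genes for correlation with the same sum, and the members were not, so the 2 sets are not alike. The correlation was 0.636 between Dcn and Nlgn1, 0.544 between Dcn and Gsta4 and 0.483 between Dcn and Cald1. Pairs with Hspd1 were lower, at 0.216 to 0.297. These pairs were not read at equal depth, and each gene had a correlation of 0.158 to 0.187 with the logarithm of the UMIs per cell. Dcn was seen in 33.4% of NIH/3T3 cells and was at 220 CPM there, against 0.278 CPM in N2a and 0.406 CPM in the mESCs. Cells with Dcn were in all wells, at 22.6% to 44.8% of the cells of a well, so they were not a property of a few wells.

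**Figure D4:**
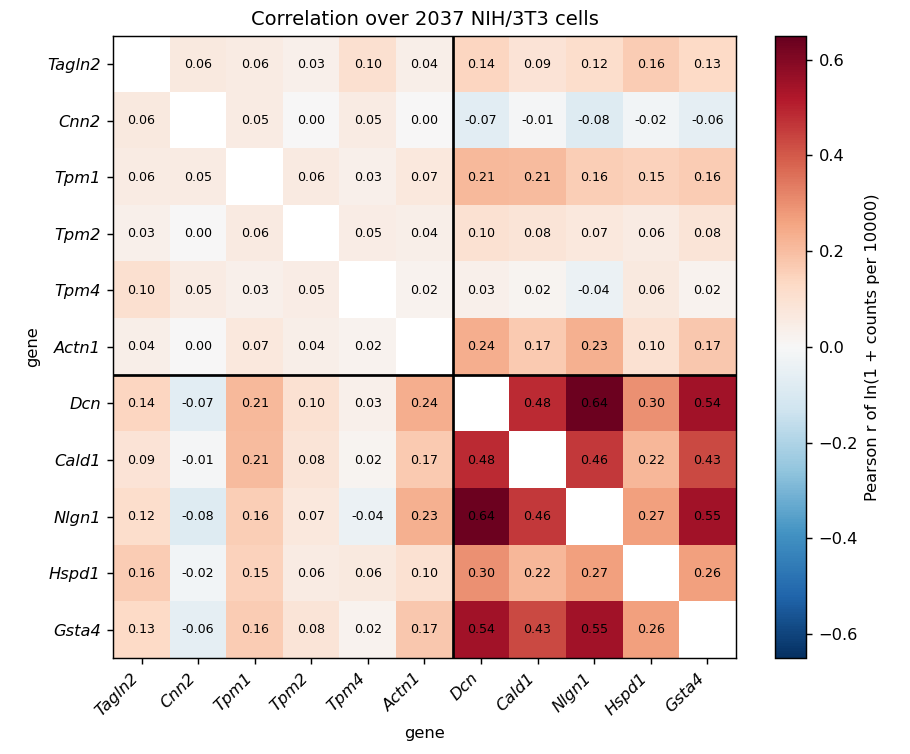
Pearson correlation over 2037 NIH/3T3 cells between the 6 expressed members and the 5 genes most like their sum, with color and printed value for r of ln(1 + counts per 10000). The block of members (upper left) is pale, with a highest value of 0.102, Tpm1 and Actn1 are correlated with Dcn at 0.209 and 0.238, and Cnn2 is at -0.0669.

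The members did not follow Dcn as a group. Cells without a Dcn UMI (1356 cells) were set beside the 510 cells with the highest Dcn share. This comparison was added after the correlations were seen, and the choice of Dcn fixes a rise of the sum, so the values are a description. Tpm1 was at 232 CPM without Dcn and 365 CPM with high Dcn, a ratio of 1.57 (1.46 to 1.69), and Actn1 was at 303 and 467 CPM, a ratio of 1.54 (1.44 to 1.64).

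Tagln2 was at 188 and 269 CPM, a ratio of 1.43 (1.32 to 1.56), and Tpm2 at 44.4 and 62.7 CPM, a ratio of 1.41 (1.18 to 1.69). Cnn2 went the other way, at 93.7 CPM without Dcn and 58.3 CPM with high Dcn, a ratio of 0.622 (0.528 to 0.731). Tpm4 was at 176 and 172 CPM, a ratio of 0.979 (0.886 to 1.08). Tpm1, Actn1, Tagln2 and Tpm2 were thus higher, Cnn2 lower and Tpm4 level within counting error in the same cells.

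The Dcn-high cells were deeper, with a median of 5670.5 against 4257 UMIs, and the part of depth was read by thinning. At 3000 UMIs in 1055 cells without and 445 cells with high Dcn, the ratios were 1.41 (1.25 to 1.59) for Tpm1, 1.43 (1.29 to 1.58) for Actn1, 1.36 (1.19 to 1.55) for Tagln2 and 0.705 (0.548 to 0.900) for Cnn2. The ratio of Tpm2 was 1.10 (0.828 to 1.45) and no longer differed from 1 beyond counting error. Before thinning, markers of the other lines stayed low in the 1356 and 510 cells, at 4.50 and 4.42 CPM for the N2a markers and at 14.5 and 24.7 CPM for the 9 mESC markers, and the 10 fibroblast markers were at 7420 and 7266 CPM.

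The other 4 genes gave a similar split. In all cells, ranked by each of them, Tpm1, Actn1 and Tagln2 were above 1 and Cnn2 below 1 with intervals clear of 1, and Tpm4 had an interval clear of 1 only for Nlgn1, at 0.853 (0.772 to 0.942). Between cells low and high in Nlgn1, Tpm1 differed by 1.52 times (1.41 to 1.63), Actn1 by 1.52 times (1.43 to 1.62) and Cnn2 by 0.579 times (0.492 to 0.678). Ranked by Cald1, which belongs to the smooth muscle list, Tpm1 differed by 1.63 times (1.49 to 1.78), Actn1 by 1.45 times (1.35 to 1.57) and Cnn2 by 0.739 times (0.621 to 0.878). At 3000 UMIs the exceptions were Tpm1 and Actn1 ranked by Hspd1, at 1.13 (0.980 to 1.30) and 1.06 (0.945 to 1.20), and Tagln2 ranked by Gsta4, at 1.13 (0.988 to 1.28). The 5 genes are correlated with each other, so these are not separate observations. All 5 were chosen for their correlation with the sum, of which Actn1, Tpm1 and Tagln2 are the largest parts. The choice therefore favors a rise of these members.

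**Figure D5:**
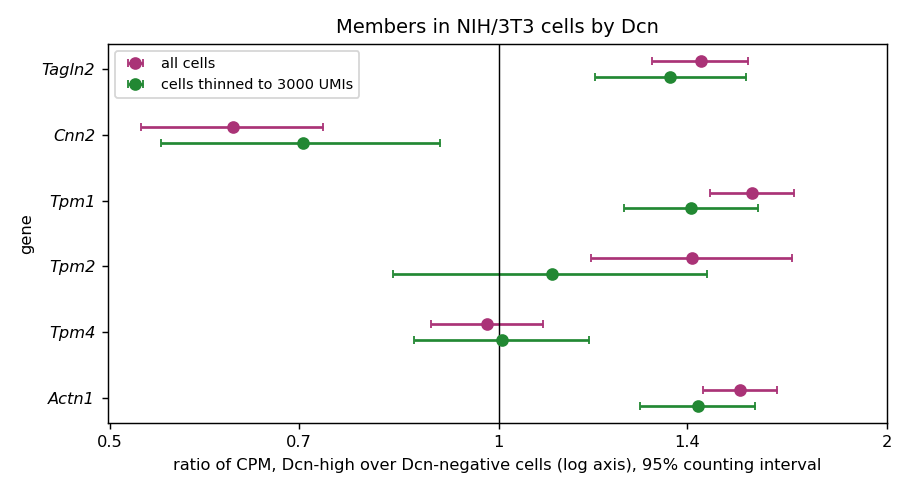
Ratio of each member's level in NIH/3T3 cells with high Dcn to that in cells without a Dcn UMI, on a log axis with exact 95% counting intervals, in all cells and in cells thinned to 3000 UMIs. Tagln2, Tpm1 and Actn1 lie above 1 and Cnn2 below 1 at both depths, while Tpm4 lies at 1. Dcn was chosen for its correlation with the summed members, which favors a rise of the largest parts of the sum.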

How the data were processed

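The authors split the reads by BC1, trimmed the template switch oligo, aligned and counted with STARsolo on GRCm39, and deposited raw UMI counts per gene and barcode, unfiltered. Whether introns were counted, and whether strand was used, is not given in the sources used here. The matrix of the pooled mixture holds the same reads and was used only as an alternative. From the deposited counts, the cells (from 1000 UMIs, mitochondrial share up to 20%) were summed per line and divided by the line's UMIs (CPM). Totals were 17955221 UMIs in N2a cells, 11697865 in NIH/3T3 and 12322098 in mESCs. Ratio intervals are exact conditional binomial ones. Thinning drew UMIs without replacement with a fixed seed. The named genes were the 10 members, examples with high NIH/3T3 levels from each list, and the 5 genes most correlated with the summed members. Tpm3, Cnn3, Tagln3, Srf, the smooth muscle markers Myh11, Lmod1 and Myocd, and the partners on the opposite strand were named beside them. The members and lists were chosen with earlier results of these data known. Positions and promoters came from the GRCm39 genome with GENCODE, where 10 of 10 identifiers matched. Scripts were tested on simulated data and used Python 3.11.15, numpy 2.4.6, scipy 1.17.1 and pandas 2.3.3.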

Additional observations from a re-analysis of the deposited data

How the results depend on the processing

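With each line present once, differences between lines have no replicate check, and no paired analysis was possible because each line is a single sample. Of 53 summary values recomputed, 49 counted as unchanged by a limit set for each kind of value. For the median correlation this limit was a shift of 0.0434, close to the value itself. A fall to 0.0163 at 3000 UMIs per cell thus counted as unchanged. A reversal was defined only for the ratio of top to bottom cells and for the median correlation. For the correlation it required a negative value beyond 0.0434. Among the values of these 2 kinds 0 reversed, and the other kinds could not be called reversed. At 4 times in place of 2, 0 members in place of 1 were higher in NIH/3T3 than in each other line. The median correlation of 0.0475 became 0.00161 at 1000 UMIs per cell, the ratio of top to bottom cells of 1.11 became 1.01 at 3000 UMIs (537 cells left out), and the summed level in mESCs of 460 CPM became 448 CPM as a mean over cells. Other cell rules, the pooled matrix and all barcodes left 4 members highest in NIH/3T3. No member's highest line changed.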

Other observations

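Outside the members, several contractile or striated relatives were highest in N2a. Actn2, the alpha-actinin of sarcomeres, was at 56.4 CPM in N2a cells, 0.855 CPM in NIH/3T3 and 9.33 CPM in the mESCs. Synpo2, an actin-bundling protein of muscle, was at 21.1, 0.0855 and 2.52 CPM, and Actg2, the gamma smooth muscle actin, at 7.52, 0.256 and 0.243 CPM. Tgfb2, a ligand of the TGF-beta family, was at 253 CPM in N2a against 2.91 CPM in NIH/3T3, while Yap1 was at 0.947 CPM in N2a and 77.0 CPM in NIH/3T3. These genes were singled out after their values were seen.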
